A study of Mus musculus with 6 samples.

Results

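A set of 10 genes of the vascular basement membrane was followed across Flk1-positive cells, Flk1 KO embryos and WT embryos of the mouse. They encode 4 chains of collagen IV (Col4a1, Col4a2, Col4a5 and Col4a6), the nidogens Nid1 and Nid2, perlecan (Hspg2), the related collagens XVIII and XV (Col18a1 and Col15a1) and the collagen-binding protein SPARC (Sparc). The members were chosen by symbol, with earlier results of these data known. Every probe set that the platform annotation assigns to 1 of these 10 symbols alone was taken. This gave 19 probe sets, all of which passed the filter on low values, out of 45101 on the array and 34621 tested. The 10 genes are among 18194 gene symbols on the array, and 1 to 3 probe sets represent each.

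Total RNA of ICR mouse embryos at 8.5 days post coitum, with 3 to 4 somites and no blood flow yet, was hybridised to Affymetrix arrays, 2 arrays in each of 3 groups. The first group is cells labelled Flk1 positive, that is, carrying the VEGF receptor encoded by Kdr, which marks endothelial cells and their precursors. Flk1+/GFP embryos are mentioned in the text on the study's design, while the label of the cells gives no allele and no source used here says how the cells were isolated. The second group is Flk1 KO embryos, which lack this receptor, and the third is WT embryos, both taken as the embryo proper. All 3 groups share strain and stage. Any difference of genotype between cells and WT embryos, and the step of isolating cells, cannot be told apart from the group itself. Which knockout allele was used, and whether the Kdr probe set lies in the deleted stretch, no source used here says. Nothing in the labels tells whether paired arrays stem from different animals or pools, so p-values cover the scatter of these samples alone, and that scatter may be technical.

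Basement membranes are thin sheets of matrix that lie under epithelia and endothelia. Collagen IV trimers join end to end into one network and laminins into another, nidogens and perlecan bridge both, and SPARC binds collagen and affects how it is deposited. The common collagen IV trimer holds α1 and α2 chains and is made in nearly all basement membranes, while α5 and α6 chains form a trimer of more restricted use, found for example under some epithelia and around smooth muscle. Mouse embryos without Col4a1 and Col4a2 form early basement membranes but die around mid-gestation as these lose their integrity. Collagens XVIII and XV carry glycosaminoglycan chains, and the C-terminal part of collagen XVIII is released as endostatin.

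The collagen IV genes lie in head-to-head pairs, and the start regions of both pairs are shown because the pairs gave different values on the arrays. RefSeq windows on build GRCm38.p6, from 250 bases before to 50 bases after an annotated start, were found for 9 of the 10 genes (10 windows, since Col18a1 has 2 starts), all but Nid2. Start sites of Col4a1 (chr8:11312777-11313076, minus strand) and Col4a2 (chr8:11312555-11312854, plus strand) are 21 bases apart on opposite strands of chromosome 8, and the windows share 78 bases. Those of Col4a6 (chrX:141474027-141474326, minus strand) and Col4a5 (chrX:141475169-141475468, plus strand) are 1343 bases apart on the X chromosome. The Nid1 window (chr13:13437352-13437651, plus strand, chromosome 13) is added for the gene with the widest difference. Each is written 5′ to 3′ on the gene's own strand, and capitals mark GGGCGG (GC box) and CCAAT matches on either strand.
Col4a1: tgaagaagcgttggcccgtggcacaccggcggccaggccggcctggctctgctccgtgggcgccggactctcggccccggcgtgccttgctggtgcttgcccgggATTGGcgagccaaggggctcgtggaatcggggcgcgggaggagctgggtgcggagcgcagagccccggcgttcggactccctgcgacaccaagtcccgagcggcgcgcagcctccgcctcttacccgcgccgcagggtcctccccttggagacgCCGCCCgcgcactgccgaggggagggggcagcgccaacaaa
Col4a2: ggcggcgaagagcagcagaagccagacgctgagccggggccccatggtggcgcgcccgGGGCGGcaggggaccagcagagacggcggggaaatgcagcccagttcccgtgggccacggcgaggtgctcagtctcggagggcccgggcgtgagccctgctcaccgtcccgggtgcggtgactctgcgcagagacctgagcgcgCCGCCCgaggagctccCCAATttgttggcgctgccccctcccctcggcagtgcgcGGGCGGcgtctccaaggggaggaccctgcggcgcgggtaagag
Col4a6: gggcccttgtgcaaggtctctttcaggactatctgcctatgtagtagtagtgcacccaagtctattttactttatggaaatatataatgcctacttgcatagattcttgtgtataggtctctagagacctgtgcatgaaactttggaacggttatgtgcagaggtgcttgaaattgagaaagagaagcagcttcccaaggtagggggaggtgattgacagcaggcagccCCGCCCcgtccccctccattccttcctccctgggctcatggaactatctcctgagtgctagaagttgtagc
Col4a5: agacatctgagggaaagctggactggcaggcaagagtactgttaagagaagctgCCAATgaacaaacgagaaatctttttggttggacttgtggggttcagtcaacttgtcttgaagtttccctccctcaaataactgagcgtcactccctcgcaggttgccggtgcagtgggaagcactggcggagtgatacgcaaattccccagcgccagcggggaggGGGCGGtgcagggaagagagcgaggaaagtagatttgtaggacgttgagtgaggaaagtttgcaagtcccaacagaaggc
Nid1: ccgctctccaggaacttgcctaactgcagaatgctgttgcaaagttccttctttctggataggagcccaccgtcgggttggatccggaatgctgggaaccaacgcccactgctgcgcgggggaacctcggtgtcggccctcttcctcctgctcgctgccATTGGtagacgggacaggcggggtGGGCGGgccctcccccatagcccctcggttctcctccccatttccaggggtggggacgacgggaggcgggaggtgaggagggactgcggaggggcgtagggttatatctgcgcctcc

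The Col4a1 and Col4a2 windows had a GC content of 74.0% and 73.7%, those of Col4a6 and Col4a5 48.3% and 52.7%, and the Nid1 window 64.7%, against a median of 52.7% over 32851 RefSeq windows of the same length. GGGCGG was present in 7 of the 10 members' windows and in 35.7% of all windows. It occurred once in Col4a1 and 3 times in Col4a2, and 5 times in the window of Hspg2. The Col4a1 match lies in the bases that both windows share and is the same site as 1 of the 3 in Col4a2, so it is counted in both. CCAAT was present in 5 of 10 windows, both of the Col4a1 and Col4a2 pair among them, and in 37.4% of all windows. The ETS core CCGGAA was found in 1 window, that of Nid1 (14.9% of all windows), and none held the GATA core AGATAA (11.2% of all windows), the SOX core ACAATG (12.6%) or the TATA box TATAAA (13.6%), each searched on both strands without overlap between different motifs being removed. These matches describe the letters of the windows only.

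The labels were checked on Kdr. Its probe set read 3309 and 3328 in Flk1-positive cells, 29.5 and 63.8 in Flk1 KO embryos, and 543.9 and 545.5 in WT embryos, so it followed the labels on all 6 arrays. The Flk1 KO mean was not above background, which is taken per array as the 95th percentile of 77 probe sets for olfactory and vomeronasal receptors (49.4 to 79.5). With log2(signal + 21.61), the scale of all differences below, Kdr in Flk1 KO embryos was below its WT level by at least 7.03-fold, at a limma adjusted p of 0.0516 that misses the threshold of 0.05. Alternatives gave adjusted p-values from 6.69e-05 to 0.416, with the same direction in each. The 10 endothelial markers used for the check had a summed signal of 45125 to 45434 in Flk1-positive cells, 955 to 992 in Flk1 KO embryos and 3154 to 3289 in WT embryos. Replicate arrays correlated at 0.980 to 0.984 over the probe sets tested and arrays of different groups at 0.901 to 0.982, so this measure does not fully separate replicates from other groups.

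The comparison of Flk1-positive cells with WT embryos asks which transcripts the cells hold above the level of the whole embryo. Of the 10 genes, each read by its brightest probe set, 7 were higher (Col4a1, Col4a2, Nid1, Hspg2, Col18a1, Col15a1 and Sparc), 1 was lower (Col4a6), and Col4a5 and Nid2 passed in neither direction. Over all 15204 genes tested by their brightest probe set, 12.2% were higher and 17.5% lower. The members' median log2 difference was 1.37, against -0.08 over all genes. As the members were chosen with earlier results of these data known, their excess over all genes is a description and no test. By probe set, 13 of the 19 were higher and 2 lower, against 11.2% and 13.8% of all probe sets. Of the 13, 1 Nid1 probe set passed the filter on low values only through its signals in the cells. Without 1 array of either group the calls over all probe sets dropped to between 2091 and 2201 higher and between 2144 and 2951 lower, against 3880 and 4794. Pairs of signals below are those of 1 probe set on the 2 arrays of a group, and signals of different probe sets are not compared with each other.

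**Figure D1:**
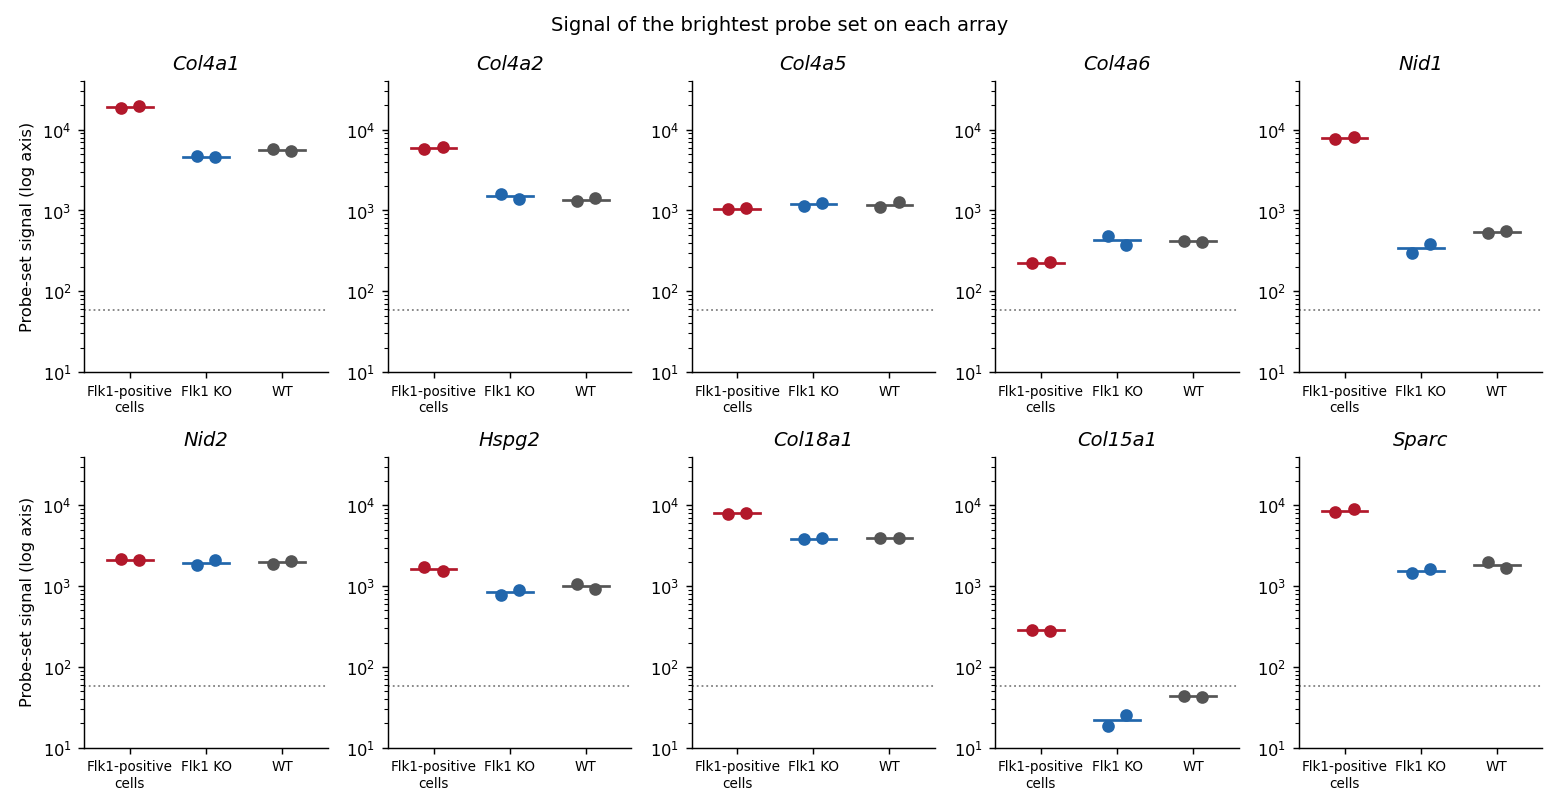
Signal of the brightest probe set of each of the 10 genes on a log axis, 1 point an array, with the group mean as a bar, for Flk1-positive cells (red), Flk1 KO (blue) and WT embryos (grey); the dotted line is the mean background signal of 58.4. Flk1-positive cells lie above both embryo groups for 7 genes and below them for Col4a6 and, by a margin that was not called, for Col4a5, and no gene is called between Flk1 KO and WT embryos.

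The α1 and α2 chains of collagen IV rose together in Flk1-positive cells. Col4a1 signals were 18621 and 19486 in Flk1-positive cells, 4700.1 and 4551 in Flk1 KO embryos, and 5828 and 5485 in WT embryos. Both cell arrays stood above all 4 embryo arrays, and the difference from WT embryos was 1.75 ± 0.12 (3.36-fold; SE, 2 arrays a group here and below; limma adjusted p = 0.000827). A second, dimmer Col4a1 probe set read 5553 and 5616 in the cells against 1048 and 1240.0 in WT embryos, a difference of 2.27 ± 0.14 (4.83-fold, limma adjusted p = 0.000628). Col4a2, read by 1 probe set, had 5790.1 and 6104 in Flk1-positive cells, 1616 and 1383 in Flk1 KO embryos, and 1293 and 1436 in WT embryos. Its difference was 2.11 ± 0.15 (4.31-fold, limma adjusted p = 0.000769), between those of the 2 Col4a1 probe sets.

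Neither gene of the X-linked pair was called higher. Col4a5, the α5 chain, read 1039 and 1066 in Flk1-positive cells, 1129 and 1245 in Flk1 KO embryos, and 1091 and 1271 in WT embryos. The cell arrays lay just under all 4 embryo arrays, and the difference was -0.16, with a 95% interval of -0.52 to 0.20 (limma adjusted p = 0.468), so a rise of the size seen for Col4a1 lies outside the interval. The second Col4a5 probe set overlapped between the groups (-0.08, interval -0.55 to 0.39). Col4a6, the α6 chain, was lower: 225 and 227 in Flk1-positive cells against 486 and 370.1 in Flk1 KO embryos and 419.7 and 412 in WT embryos. The difference from WT embryos was -0.82 ± 0.16 (limma adjusted p = 0.0202), a call that did not hold when any 1 array of the cells or of WT embryos was omitted (-0.83 to -0.81, adjusted p = 0.0835 to 0.0998). The dimmer Col4a6 probe set read 80.9 and 85.3 in the cells against 181 and 279 in WT embryos (-1.24 ± 0.21, limma adjusted p = 0.0121), and its call too was lost without either Flk1-positive array (adjusted p = 0.0581 and 0.0521). The remaining α3 chain gene Col4a3 was not called (0.12 ± 0.46, at signals below background), and Col4a4 did not pass the filter on low values.

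The nidogens parted in the same way. Nid1, the nidogen that links laminin to collagen IV in most tissues, read 7579 and 8147 in Flk1-positive cells, 296 and 383 in Flk1 KO embryos, and 527 and 558 in WT embryos. Every embryo array lay below every cell array, and the difference from WT embryos was 3.81 ± 0.17 (14.0-fold, limma adjusted p = 0.000456). The other Nid1 probe sets were higher as well, by 3.16 ± 0.13 and, with WT signals of 16.5 and 18.5 below background, by at least 2.38-fold. Nid2, its paralogue, read 2148 and 2087 in Flk1-positive cells, 1804 and 2101 in Flk1 KO embryos, and 1893 and 2062 in WT embryos. Its difference was 0.10, with a 95% interval of -0.26 to 0.45 (limma adjusted p = 0.656), all on 1 probe set.

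Within an array, the log2 ratio of Nid1 to Nid2 changed by 3.71 between Flk1-positive cells and WT embryos, and lay at 3.63 and 3.78 in the cells, -0.70 and -0.56 in Flk1 KO embryos, and 0.02 and -0.02 in WT embryos, each relative to the WT mean. The ratio of Col4a1 to Col4a5 changed by 1.91 and that of Col4a2 to Col4a6 by 2.93, again without overlap of the arrays. Col4a1 over Col4a2 moved by only -0.36. With 2 arrays a group, the exact permutation test (two-sided) cannot give a p below 0.333, the value of each of these 4 changes (0.40 after Benjamini-Hochberg adjustment over 18 relations, 6 gene pairs in 3 comparisons), so unequal change of these genes is not shown by that test.

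**Figure D2:**
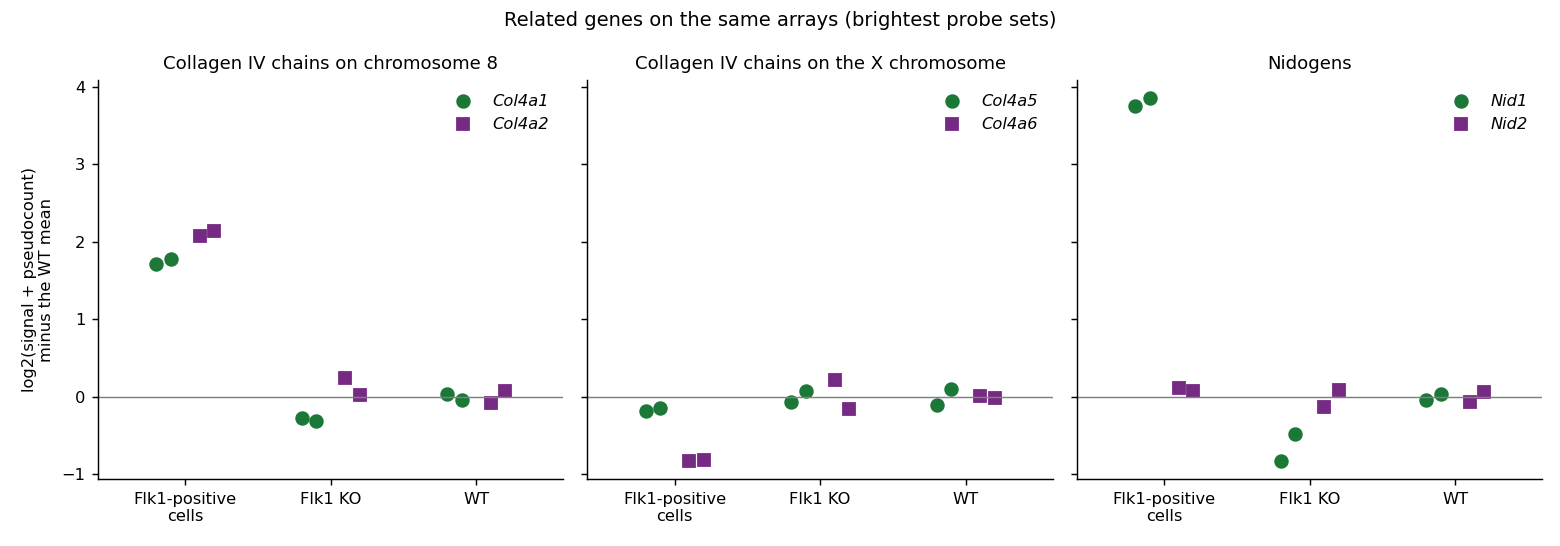
Values of related genes on the same arrays as log2(signal + pseudocount) minus the mean of the 2 WT arrays, 1 point an array, for the collagen IV pairs on chromosome 8 and on the X chromosome and for the nidogens. In Flk1-positive cells Col4a1, Col4a2 and Nid1 lie 1.75, 2.11 and 3.81 above the WT mean, Col4a5 and Nid2 near 0, and Col4a6 below it.

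Perlecan, the heparan sulfate proteoglycan of basement membranes, was higher on both of its probe sets, which differed in size. The brightest Hspg2 probe set read 1726 and 1535 in Flk1-positive cells, 783 and 889 in Flk1 KO embryos, and 1070.2 and 929 in WT embryos, a difference from WT of 0.70 ± 0.15 (1.62-fold, limma adjusted p = 0.0265). That call did not hold when any 1 array of the cells or of WT embryos was omitted (0.60 to 0.80, adjusted p = 0.0737 to 0.135). The other Hspg2 probe set read 1993 and 1889.8 in the cells, 140.1 and 174 in Flk1 KO embryos, and 258 and 179 in WT embryos, a difference of 3.05 ± 0.21 (8.30-fold, limma adjusted p = 0.000722). No source used here places each probe set in the transcript, so the size of the perlecan difference is uncertain while its direction is shared.

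The related collagens XVIII and XV, which sit between basement membrane and the matrix beneath, were both higher. Col18a1 read 7881 and 8071 in Flk1-positive cells, 3835 and 3893 in Flk1 KO embryos, and 3967 and 4000.5 in WT embryos, a difference of 0.998 ± 0.12 (limma adjusted p = 0.00393). Its second probe set gave 1.21 ± 0.14. Col15a1 read 289 and 282 in Flk1-positive cells, 18.6 and 25.5 in Flk1 KO embryos, and 44.0 and 42.3 in WT embryos. Neither embryo group was above background for Col15a1, so its excess in the cells over WT embryos was at least 3.97-fold (limma adjusted p = 0.000628).

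Sparc read 8260.1 and 8994 in Flk1-positive cells, 1439 and 1653 in Flk1 KO embryos, and 2006 and 1695 in WT embryos. The cell arrays stood apart from all embryo arrays, with a difference from WT embryos of 2.21 ± 0.16 (4.63-fold, limma adjusted p = 0.000813). A second Sparc probe set gave 2.28 ± 0.17. The third, much dimmer, read 109 and 105 against 99.4 and 93.6 in WT embryos and was not called (0.12, 95% interval -0.22 to 0.47).

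**Figure D3:**
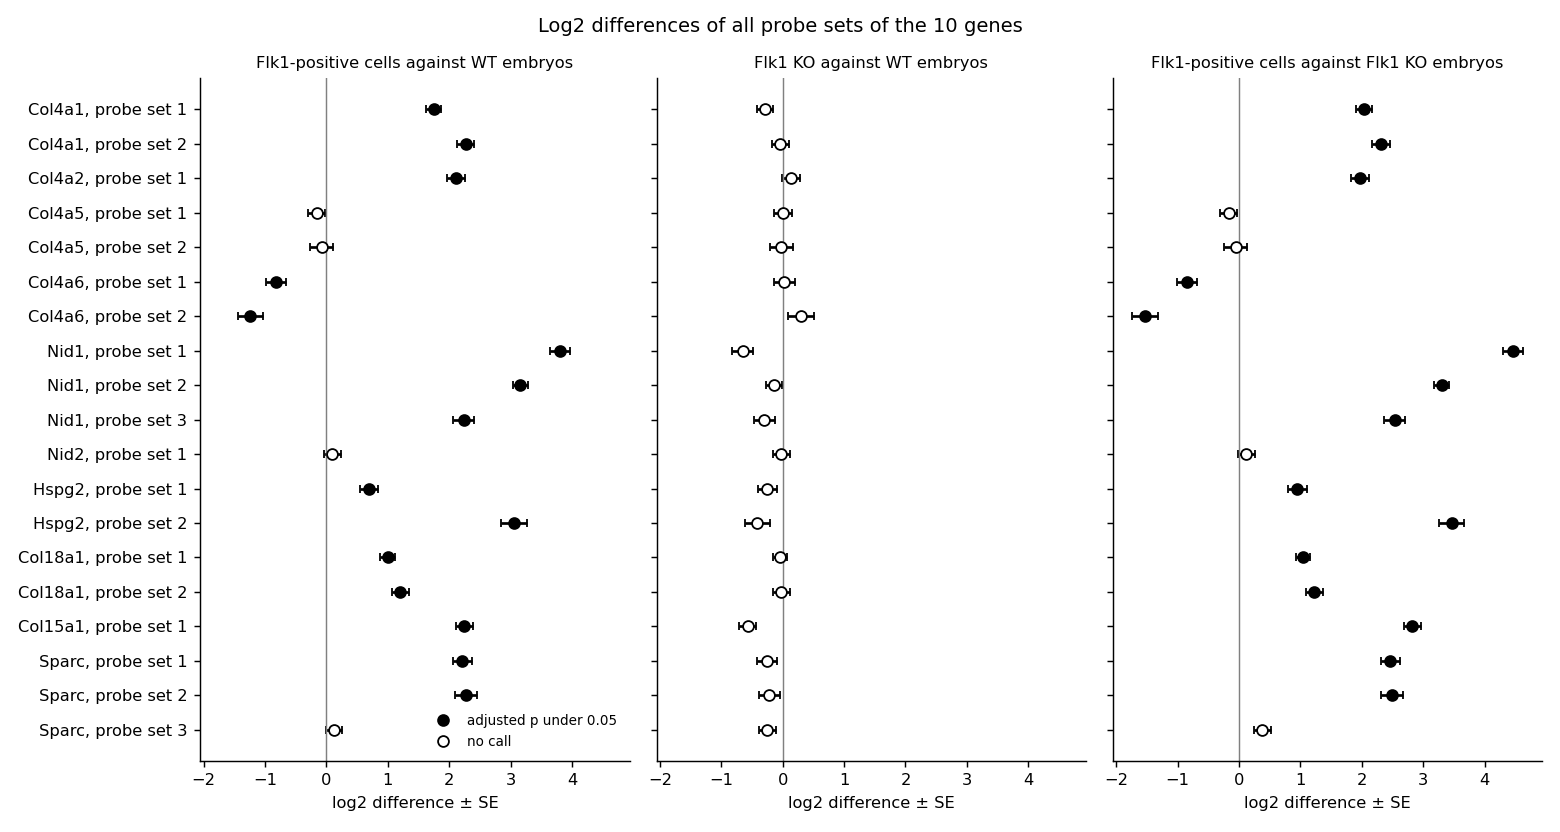
Log2 difference with its SE (limma, 2 arrays a group) for all 19 probe sets of the 10 genes, numbered within a gene by brightness, in the 3 comparisons; filled points had an adjusted p under 0.05. In Flk1-positive cells 13 probe sets are higher and 2 lower than in WT embryos, while none is called between Flk1 KO and WT embryos.

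The comparison of Flk1 KO with WT embryos asks which transcripts change when the receptor is lost. None of the 10 genes was called by limma, where over all genes 0% were higher and 0.132% lower, and 2 members had an unadjusted p under 0.05 (over all genes, 2.66% higher and 3.65% lower). For 6 members each Flk1 KO array read less than either WT array (Col4a1, Nid1, Hspg2, Col18a1, Col15a1 and Sparc), against 18.1% of all genes, and for no member did each read more (19.1%). The 6 are among the 7 members higher in Flk1-positive cells, but both comparisons use the same WT arrays. The members' median difference was -0.15, and 0.00 over all genes. In a whole embryo, fewer cells of a type and less RNA per cell cannot be told apart.

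Nid1, with 296 and 383 in Flk1 KO against 527 and 558 in WT embryos, differed by -0.65 (95% interval -1.07 to -0.24, limma adjusted p = 0.403). Its other probe sets gave -0.14 and, with both groups below background, -0.30. Col15a1 gave -0.57 (limma adjusted p = 0.383), with both groups below background, so no fold is given. Col4a1 gave -0.29 on its brightest probe set (interval -0.60 to 0.02) and -0.04 on the other, Col4a2 0.13 (-0.24 to 0.50), Hspg2 -0.25 and -0.41, and Sparc -0.25. Col4a5, Col4a6, Nid2 and Col18a1 lay between -0.04 and 0.03 on their brightest probe sets, of which Nid2 and Col18a1 turned positive with median centring (0.080 and 0.057) and Col4a5 negative with quantile normalization. The smallest adjusted p of any member was 0.383. On the same arrays all 10 endothelial markers lay below WT on both Flk1 KO arrays, against 18.1% of all genes, with 7 of them not above background. Limma called 4 of the 10 lower, against 0.132% of all genes. The 8 mesenchymal and mural markers summed to 15304 to 17614 in Flk1 KO and 11911 to 12389.6 in WT embryos. Of these 8, 5 read higher on both Flk1 KO arrays than on either WT array (19.1% of all genes), and none was called. The same held for 6 of 8 visceral and yolk sac endoderm markers and for 5 of 5 cardiomyocyte markers, also without a call. Of 6 neuroectoderm markers, 3 read lower on both Flk1 KO arrays, again without a call. The part of any of these marker sets in the members' values was not tested.

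Flk1-positive cells were also set against Flk1 KO embryos, a comparison that shares its arrays with both others. Again 7 members were higher and Col4a6 lower, against 12.9% and 19.1% of all genes, and the median difference was 1.51 (-0.08 over all genes). Nid1 differed by 4.46 ± 0.17 (22.0-fold, limma adjusted p = 0.000223), Col4a1 by 2.04 ± 0.12, Col4a2 by 1.98 ± 0.15 and Sparc by 2.47 ± 0.16. Hspg2 differed by 0.95 ± 0.15 on its brightest probe set and 3.46 ± 0.21 on the other, Col18a1 by 1.04 ± 0.12, and Col15a1 was at least 4.18-fold higher. Col4a6 was lower by the same measure (-0.85 ± 0.16, limma adjusted p = 0.0164), a call lost without either Flk1-positive array. The dimmer Col4a6 probe set gave -1.53 ± 0.21 (limma adjusted p = 0.00565), and -1.56 to -1.50 on leaving out single arrays. Col4a5 (-0.17, 95% interval -0.53 to 0.19) and Nid2 (0.12, -0.24 to 0.48) were not called.

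Markers of other cells that make basement membrane were mostly lower in Flk1-positive cells. Over all genes, 17.5% were called lower than in WT embryos and 12.2% higher. Of 8 mesenchymal and mural markers, 4 were called lower than in WT embryos and none higher. They summed to 4092 to 4332 in the cells against 11911 to 12390 in WT embryos, and all 8 were above background in the cells. The 8 visceral and yolk sac endoderm markers summed to 8167 to 8259 in Flk1-positive cells, 27264 to 28879 in Flk1 KO embryos and 19508 to 22085 in WT embryos, and all 8 were lower in the cells than in WT embryos. Of 5 parietal endoderm and trophoblast markers on the array, 4 were lower in the cells, with sums of 564 to 639 against 2603 to 2873 in WT embryos. All 7 gut and surface epithelium markers were lower too (2749 to 2868 in the cells, 22541 to 24186 in WT embryos), and Epcam and Foxa2 were not above background. Blood markers rose with the endothelial ones. Of 6 primitive erythroid markers, the 5 on the array were all higher in the cells (42379.9 to 44057 summed, against 383 to 929 in WT embryos). Of 6 myeloid and megakaryocyte markers, 5 were higher. In WT embryos Alas2 and Klf1 of the erythroid markers and Ptprc and Fcer1g of the myeloid ones were not above background. The part of all these marker sets in the members' values was not tested. Among RNA control probe sets, the 3′ minus 5′ log2 difference of Actb was 0.26 and 0.29 in Flk1-positive cells, against 0.47 and 0.58 in Flk1 KO and 0.57 and 0.55 in WT embryos. Tfrc ran the other way, with 1.26 and 1.35 in Flk1-positive cells, 0.96 and 1.05 in Flk1 KO and 0.999 and 0.94 in WT embryos, and Gapdh lay between -0.37 and -0.32 on all arrays, so the controls shared no direction. Their part was not tested either.

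Genes that act with the members were read from 7 lists of 113 genes, also chosen with earlier results of these data known. Of the 113, 107 were on the array and 102 passed the filter. In Flk1-positive cells against WT embryos, 24 were higher and 31 lower, against 12.2% and 17.5% of all genes; between Flk1 KO and WT embryos limma called none (4 at an unadjusted p under 0.05), and the smallest adjusted p was 0.245. Genes are named by a rule of size within each list. Some counts within a list lie near the shares over all genes. These include both counts of the laminin chains and the higher count of the other basement membrane genes. Of the genes for collagen folding, modification and export, 6 of 17 were higher and 2 lower (median 0.50). The count of 6 fell to 2 or 3 without any 1 array of the cells or of WT embryos and reached 12 with an intensity trend and robust prior. The prolyl 3-hydroxylase P3h1 read 857 and 874 in the cells against 366 and 352 in WT embryos (1.22 ± 0.13), and the collagen chaperone Serpinh1 rose by 0.98 ± 0.16. P3h2, another prolyl 3-hydroxylase, was lower (214 and 158 against 637 and 626; -1.67 ± 0.17), as was the lysyl hydroxylase Plod2 (-0.94 ± 0.16). Limma's adjusted p was at most 0.0109 for all 4, and the calls of Serpinh1 and Plod2 were lost without single arrays.

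Of 6 crosslinking genes, 2 were higher and 1 lower (median 0.18). The shares over all genes, here and for the laminin chains, were 12.2% higher and 17.5% lower. The transglutaminase Tgm2 read 2466 and 2337 in Flk1-positive cells against 391 and 339.9 in WT embryos (2.65 ± 0.26) and Loxl3 rose by 0.73 ± 0.16, a call that needed Flk1-positive replicate 1 and both WT arrays, while Loxl1 was at least 2.43-fold lower. Peroxidasin (Pxdn), which forms the sulfilimine bonds between collagen IV trimers, was not called (0.12 ± 0.12; it was named for this role, after its value was seen). Of 9 laminin chains, Lama4, the α4 chain of vascular laminins, was higher (1901 and 2157 against 162 and 200.4; 3.34 ± 0.16, and 2.74 as the median over probe sets), and Lama5 (-0.97 ± 0.17) and Lama1 (-0.68 ± 0.16) were lower. The Lama5 call needed replicate 1 of the cells and of WT embryos, and that of Lama1 was lost without any 1 of the 4 arrays compared, with the replicate block and with median centring, so the lower count ran from 0 to 2. Lamb1 and Lamc1, partners of Lama4 in its trimer, were not called on their brightest probe sets (0.35 ± 0.14 and 0.14 ± 0.12; also chosen after their values were seen).

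Of 21 other basement membrane and SPARC family genes, 2 were higher and 10 lower (median -0.83). For this list and the heparan sulfate genes, the shares over all genes were 12.2% higher and 17.5% lower. Fibronectin (Fn1) read 18889.6 and 19718 in Flk1-positive cells against 6739.8 and 7342 in WT embryos (1.45 ± 0.14), and hemicentin 1 (Hmcn1) rose by 1.42 ± 0.17. Frem2, an epithelial basement membrane protein, was at least 8.63-fold lower, and nephronectin (Npnt), an integrin ligand, read 89.6 and 80.5 against 867 and 921 (-3.10 ± 0.13). The median over its 5 probe sets was smaller (-1.12), and only 2 of the other 4 were called lower. Of 20 heparan sulfate genes none was higher and 8 were lower (median -0.52), led by the endosulfatase Sulf1 (185 and 167 against 1134 and 1178; -2.57 ± 0.17) and the 6-O-sulfotransferase Hs6st1 (-1.22 ± 0.16). The count of 8 was 3 without WT replicate 2, 5 without the other WT array or either array of the cells, and 4 with the median over probe sets. Hspg2, which encodes a core protein for such chains, was higher.

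Receptors were divided, with 7 of 18 higher and 8 lower (median -0.12), the 8 becoming 5 without Flk1-positive replicate 2 or either WT array. Itga1, which pairs with β1 integrin as a collagen IV receptor, read 474 and 509 in Flk1-positive cells against 31.3 and 68.4 in WT embryos, at least 5.96-fold higher, and Itgb3, the β3 integrin, was at least 3.36-fold higher. Ddr1, a collagen receptor kinase of epithelia, was lower (216 and 134 against 3876 and 3999; -4.36 ± 0.51), and so was Bcam, a receptor for laminin α5 (-2.21 ± 0.15). The 7 other Ddr1 probe sets tested gave 3 falls and 4 without a call, and the median over all 8 was -1.50. Of 11 genes for the degradation of collagen IV and its inhibitors, 6 were higher and none lower (median 0.74), and 3 were higher without Flk1-positive replicate 2 or either WT array. Timp3, an inhibitor of metalloproteases, read 1595 and 1366 against 139.6 and 211 (2.95 ± 0.21, and 2.19 as the median over probe sets), and the collagen IV protease Mmp9 read 440.4 and 451 against 94.2 and 91.9 (2.03 ± 0.15). Limma's adjusted p was at most 0.0036 for each gene named as called from the receptor and degradation lists. The shares over all genes, beside the counts of these lists, were 12.2% higher and 17.5% lower.

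**Figure D4:**
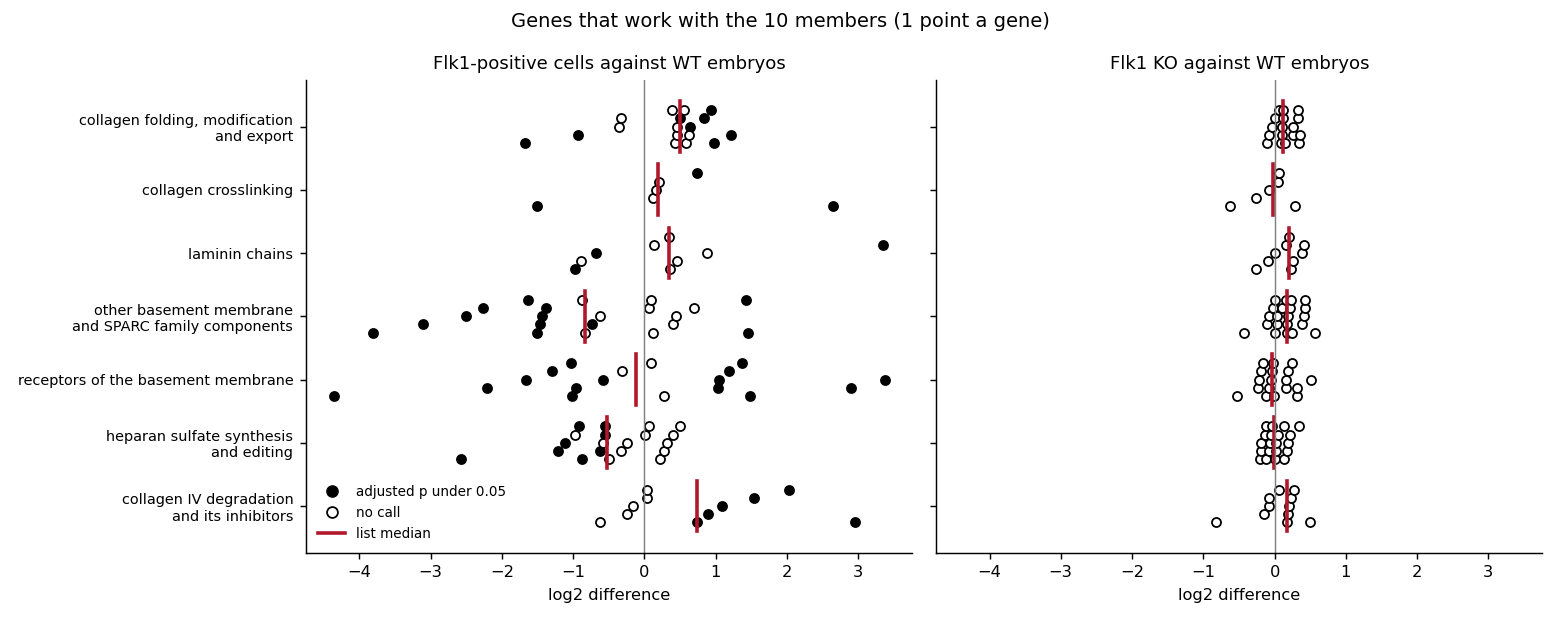
Log2 difference of each gene of the 7 lists (brightest probe set, 1 point a gene) in Flk1-positive cells against WT embryos and in Flk1 KO against WT embryos; filled points had an adjusted p under 0.05 and the red bar is the list's median. In Flk1-positive cells 24 genes are called higher and 31 lower, and no point is filled for Flk1 KO embryos.

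Against Flk1 KO embryos 24 list genes were higher and 31 lower, where 12.9% and 19.1% of all genes were. P3h3, a further prolyl 3-hydroxylase, headed the folding list there (0.92 ± 0.15, a call lost without Flk1-positive replicate 1), and P3h1 followed (0.89 ± 0.13). Tgm2 (3.27 ± 0.26), Lama4 (3.43 ± 0.16) and Timp3 (2.46 ± 0.21) were higher, Mmp9 was at least 6.32-fold higher and Itga1 at least 6.98-fold. Npnt (-3.21 ± 0.13), Sulf1 (-2.39 ± 0.17) and Ddr1 (-3.84 ± 0.51) were lower. For these genes limma's adjusted p was at most 0.0099.

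The genes whose pattern over the 6 arrays was nearest to Col4a1 were Ssh2, Limch1, Kat2b, Car2 and Slc4a1, with a root mean square difference of 0.06 to 0.09 on the log2 scale after centring and Pearson correlations of 0.995 to 0.999. Slc4a1 averaged 78.5 in Flk1-positive cells and was not above background in the embryos (4.34 in Flk1 KO and 8.01 in WT embryos). Both embryo means lay below the pseudocount, so the size of the Slc4a1 difference (1.76 against WT embryos) depends on the pseudocount. The match of Slc4a1 to Col4a1 therefore cannot be judged from these values. Nearest to Nid1 were Csgalnact1, Gpm6b, Cd109, Fxyd5 and Shank3, with differences of 0.09 to 0.17 and correlations of 0.997 to 0.999. Of these, Csgalnact1 averaged 1196 in Flk1-positive cells, 28.6, not above background, in Flk1 KO embryos and 67.1 in WT embryos. The 6 points share arrays and fall into 3 groups, so the correlations are descriptions.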

How the data were processed

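The deposited table holds 1 linear intensity per probe set and array; per the labels' protocols, an RNeasy Micro kit yielded the RNA, and biotin-labelled product went onto Affymetrix GeneChips. The authors' design text names GeneSpring; no source used here says which program made the values. The 2% trimmed mean was 500 on each array and the lowest value 1, so these deposited intensities had been scaled and floored. No detection calls or scanner files were used, and the number of arrays limits the precision.

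Differences were taken on log2(signal + 21.61), the 25th percentile of all values, without rescaling. The 64 control probe sets and those with a mean below this value were left out, and limma 3.58.1 in R 4.3.3 (lmFit, eBayes; 3 residual and 2.44 prior degrees of freedom) was fitted to all 6 arrays with group as the only term, two-sided, with Benjamini-Hochberg adjustment over 34621 probe sets. Groups share 1 estimate of the spread. A gene was read by its brightest probe set. Where the dimmer group was not above background, a fold is given as at least that against the background level. Figures used matplotlib 3.10.9 in Python 3.11.15.

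The platform annotation gave 34958 probe sets 1 symbol, 932 several and 9211 none; 34754 matched a RefSeq gene table. Members and lists were chosen with earlier results of these data known. Named genes were the members, Kdr, up to 2 rising and 2 falling genes of each list that passed the test without overlap of arrays, and 5 nearest patterns of Col4a1 and Nid1. Alternatives were other pseudocounts, filters, scalings, variance models and arrays, a replicate block and the median of all probe sets of a gene. The fit was also run on simulated data with known changes, as a check of the code only. Same-numbered arrays did not deviate together (correlations of 0.00 to 0.03).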

Additional observations from a re-analysis of the deposited data

How the results depend on the processing

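Over 17 alternatives, 1 of them (leaving out the 25% of probe sets with the lowest mean log2 value) chosen after seeing the data, 6 or 7 members were higher in the cells against WT or Flk1 KO embryos (6 where Hspg2 was lost), and none was called between Flk1 KO and WT embryos. The 1 lower member, Col4a6, lost the call of its brightest probe set without any 1 Flk1-positive or WT array against WT embryos. Against Flk1 KO embryos that call was lost without either Flk1-positive array, while the dimmer probe set gave -1.56 to -1.50 on leaving out single arrays. List genes called on leaving out single arrays numbered 16 to 27 higher and 20 to 30 lower against WT embryos (20 lower without WT replicate 2, against 31), and 15 to 23 higher and 25 to 30 lower against Flk1 KO embryos (15 higher without Flk1-positive replicate 1, against 24). Over all probe sets, Flk1-positive cells gave 2091 to 3978 higher and 2144 to 4781 lower against WT embryos on leaving out single arrays (3880 and 4794 with all), and 2555 to 3802 and 3162 to 3890 against Flk1 KO embryos (4654 and 5153 with all). The labels number the arrays of each group alike. With this number as a replicate block, 7 members stayed higher and 1 lower in both comparisons of Flk1-positive cells, with 22 list genes higher and 29 lower against WT embryos and 22 and 30 against Flk1 KO embryos. Over all probe sets, Flk1 KO against WT embryos gave 23 lower and 0 higher in the main setting, 0 lower with the block, with the smaller pseudocount, with only these groups or without any 1 array, and 121 lower and 13 higher with an intensity trend and robust prior.

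Differences near 0 changed sign without reaching the threshold. Against WT embryos, median centring gave Flk1 KO values of 0.060 for the dimmer Col4a1 probe set, 0.077 for the dimmer Col4a5, 0.080 for Nid2, and 0.057 and 0.080 for Col18a1, and the brightest Col4a5 probe set gave -0.00095 with quantile normalization and -0.0074 with the median over probe sets. Leaving out single arrays gave, for Flk1 KO against WT embryos, -0.16 to 0.078 for the dimmer Col4a1 probe set, -0.10 to 0.12 and -0.21 to 0.16 for Col4a5, -0.16 to 0.21 for the brightest Col4a6, -0.13 to 0.087 for Nid2 and -0.13 to 0.088 for the dimmer Col18a1 probe set. The dimmer Col4a5 probe set ranged from -0.20 to 0.043 for Flk1-positive cells against WT embryos and from -0.24 to 0.13 against Flk1 KO embryos. The cause was not tested. Col15a1 in the embryos is limited by background.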
